A study of Mus musculus with 6 samples.

Results

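*Npas4* encodes a transcription factor that neurons make within minutes of calcium influx. *Arc*, *Homer1*, *Nptx1*, *Nptx2*, *Bdnf*, *Inhba*, *Pcsk1*, *Vgf*, and *Scg2* encode proteins that act at synapses or are secreted. They were grouped here as effectors of neuronal activity, and whether activity induces each of them in this tissue was not tested. These 10 genes were chosen by name, as a set of *Npas4* and its class of effectors, from the 53715 genes of a deposited RNA-Seq table, and all 10 passed the filter on low counts that left 16330 genes to test. The tissue was cerebellum from male C57BL/6 mice (C57BL/6J for the parent lines in the methods) at 4 weeks of age, 3 of them control and 3 *Slc39a8*-NSKO (NSKO from here on). In the NSKO mice (labelled slc39a8-KO), the floxed alleles of *Slc39a8*, a transporter that takes up manganese, are removed by Cre recombinase under the *Synapsin I* promoter, which is active in neurons but may vary between brain regions. The sample labels call the controls WT, and the study names *Slc39a8* fl/fl mice as the controls of this cross. The study asked which transcripts change in the cerebellum when neurons lack this transporter.

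When a neuron fires, calcium entry and cAMP activate kinases that phosphorylate CREB and other factors already on the DNA, and a first wave of genes is transcribed without new protein synthesis. *Npas4*, the FOS factors, and the NR4A receptors belong to this wave. Effector genes follow, partly with the first wave and partly later. *Arc* and the short form of *Homer1* change the postsynaptic density, the pentraxins cluster AMPA receptors, *Bdnf* and *Inhba* encode secreted growth factors, and *Pcsk1*, *Vgf*, and *Scg2* belong to the dense-core vesicles from which neuropeptides are released.

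The libraries held between 14431260 and 20844267 counts on genes, with control mice 2 and 3 the shallowest. *Slc39a8* itself had 4.78, 3.20, and 2.83 counts per 1000000 (CPM, after TMM scaling of the library sizes) in control mice 1 to 3 and 1.90, 2.05, and 2.18 CPM in NSKO mice 1 to 3. Every NSKO mouse was thus below every control mouse, although over all genes edgeR's quasi-likelihood test, used throughout, gave an adjusted p of 0.534. A gene was counted as changed at an adjusted p below 0.05, which 0.0735% of the genes tested met as lower and 0.0245% as higher in NSKO mice. Cerebellar identity was clear from *Gabra6* of granule cells (513 to 581 CPM) and *Calb1* of Purkinje cells (1029 to 1160 CPM). Forebrain genes were uneven. *Emx1* was at or below 0.257 CPM and *Fezf2* was at 0 counts in all 6 mice, but *Neurod6* was at 4.71 to 7.90 CPM. *Lamp5* was at 6.32 CPM in control mouse 1, the mouse with the most *Npas4*, and at 0.924 to 2.75 CPM in the others. Whether forebrain tissue was present was not tested.

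None of the 10 genes passed the threshold, in either direction, in edgeR's test. At an unadjusted p below 0.05 stood 1 of the 10 (*Npas4*, lower), against 5.39% of all genes tested. DESeq2, the package that the study itself used, called *Npas4* as lower and no other member in its Wald test. It called 0.136% of its genes as lower, and limma-voom called no member. With no filter on low counts edgeR's test also called *Npas4* alone, among 0.412% of all genes called as lower. The genotypes did not overlap in *Npas4*, which was lower in every NSKO mouse (as were 5.26% of all genes), and in *Nptx2*, which was higher in every NSKO mouse (as were 5.07%). Over the 10 genes the median log2 fold change was 0.02, with 4 below 0, and over all genes tested it was 0.0011.

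**Figure D1:**
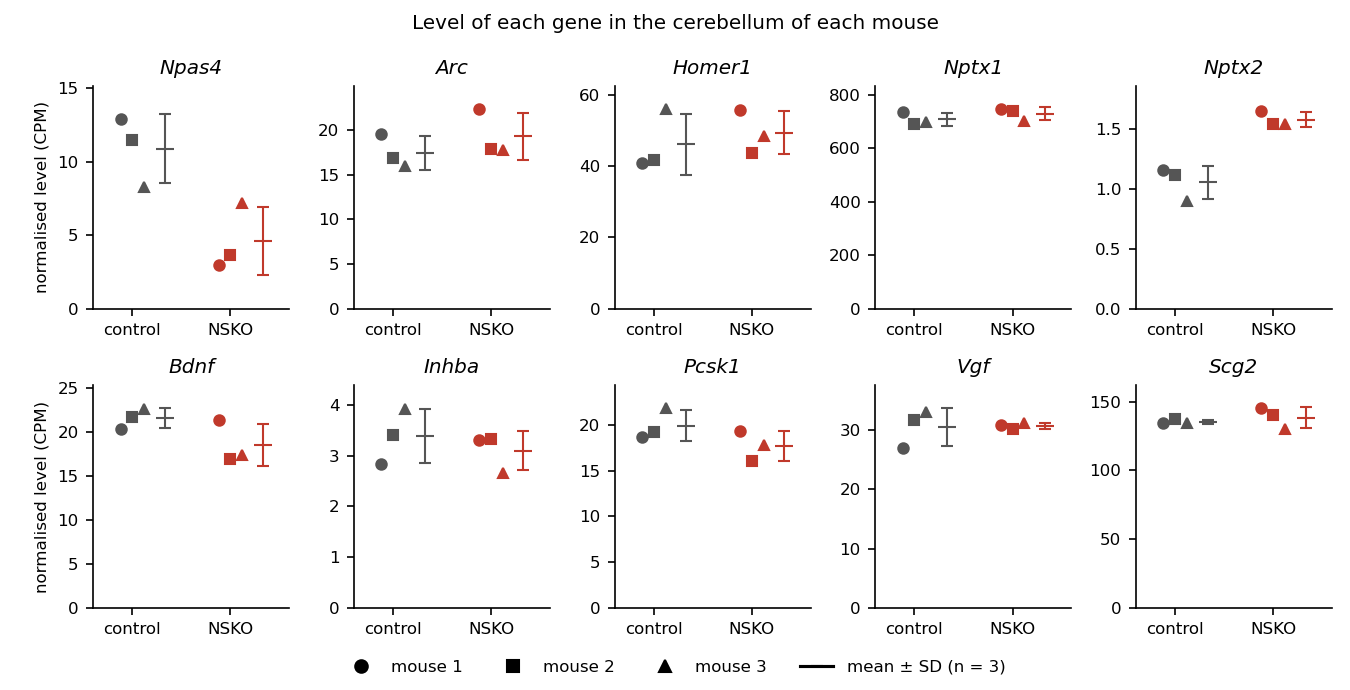
Normalised level (CPM, axes from 0) of each of the 10 genes in the cerebellum of each mouse, by genotype, with the mean and SD of 3 mice beside the points. The control mice lie between 8.29 and 12.9 CPM for *Npas4* and the NSKO mice between 2.95 and 7.22 CPM; the ranges of the genotypes are also apart for *Nptx2* and overlap for the other 8 genes.

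*Npas4* (ENSMUSG00000045903.8), the transcription factor of the set, is at chromosome 19 from 4984355 to 4990316 of GRCm38 (minus strand). Its protein pairs with ARNT proteins and, in response to calcium entry, drives genes that adjust inhibitory and excitatory synapses. Its counts were 267, 165, and 129 for control mice 1 to 3 and 59, 71, and 136 for NSKO mice 1 to 3. Scaled for library size, these were 12.9, 11.5, and 8.29 CPM in control and 2.95, 3.65, and 7.22 CPM in NSKO mice. NSKO mice 1 and 2 were far below the controls, while NSKO mouse 3 was just under control mouse 3, the lowest of its group. The control mean was 10.9 ± 2.35 CPM and the NSKO mean 4.61 ± 2.29 CPM (SD, n = 3 each), or 42.3% of control.

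The log2 fold change of *Npas4* was −1.25 (standard error 0.262, 95% interval −1.82 to −0.69), and by p it was number 38 among the genes tested. After adjustment over all genes, p was 0.142 in edgeR's test, from 0.000331 unadjusted. Permuting the mice in an exact, two-sided test gave p = 0.1, and 3 mice against 3 allow no smaller value. With DESeq2 its log2 fold change was −1.24 and the adjusted p 0.00347, and with limma-voom they were −1.36 and 0.111. Without NSKO mouse 3 the log2 fold change was −1.73 and the adjusted p 0.00636 in edgeR's test, in a fit where 0.0837% of the genes were called as lower. With any other single mouse left out, the log2 fold change lay between −1.41 and −1.01 and the adjusted p between 0.149 and 0.677. In whole cerebellum, less *Npas4* RNA in each cell and fewer cells that express it cannot be told apart.

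The spread of *Npas4* between mice of the same genotype was also large. Its standard deviation of log2 CPM within genotypes was 0.52, larger than in 94.9% of the genes tested, whose median was 0.12. Among the other members this value ran from 0.05 for *Nptx1* to 0.22 for *Homer1*.

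The promoters were read for the full cAMP response element, the letters TGACGTCA, and for its core TGACG on either strand, since CREB binds these letters and the study used this element in its reporter. Windows of 300 bases, from 250 before to 50 after a RefSeq start (GRCm38.p6), were found for 6 of the 10 genes, namely *Npas4*, *Bdnf*, *Homer1*, *Inhba*, *Pcsk1*, and *Scg2*. The full element was in 2 of their 13 windows, against 1.79% of 32851 windows of all genes, and the core was in 5 of the 13, against 20.8%. A full element also holds the core on both strands. The 5 windows with a match are shown 5′ to 3′ along the gene, with the matched letters in capitals.
Npas4 chr19:4989922-4990221, minus strand: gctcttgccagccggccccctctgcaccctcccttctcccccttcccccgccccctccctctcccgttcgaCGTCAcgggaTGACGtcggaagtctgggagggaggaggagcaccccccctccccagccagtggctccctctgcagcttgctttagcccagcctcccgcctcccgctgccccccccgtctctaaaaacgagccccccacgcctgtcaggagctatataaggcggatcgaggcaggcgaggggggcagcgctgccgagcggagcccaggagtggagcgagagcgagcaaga
Pcsk1 chr13:75089607-75089906, plus strand: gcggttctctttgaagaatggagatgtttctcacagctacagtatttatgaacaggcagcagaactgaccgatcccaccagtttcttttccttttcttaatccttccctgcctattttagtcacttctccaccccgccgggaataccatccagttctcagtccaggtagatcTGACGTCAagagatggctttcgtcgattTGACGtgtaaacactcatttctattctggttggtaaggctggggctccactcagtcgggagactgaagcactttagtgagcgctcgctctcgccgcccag
Scg2 chr1:79439977-79440276, minus strand: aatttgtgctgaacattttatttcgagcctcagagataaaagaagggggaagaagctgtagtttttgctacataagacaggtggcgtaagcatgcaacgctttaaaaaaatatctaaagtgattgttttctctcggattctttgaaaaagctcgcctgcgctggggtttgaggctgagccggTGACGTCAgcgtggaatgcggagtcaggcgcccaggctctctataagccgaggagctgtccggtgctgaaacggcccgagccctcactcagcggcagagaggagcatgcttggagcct
Homer1 chr13:93303507-93303806, plus strand: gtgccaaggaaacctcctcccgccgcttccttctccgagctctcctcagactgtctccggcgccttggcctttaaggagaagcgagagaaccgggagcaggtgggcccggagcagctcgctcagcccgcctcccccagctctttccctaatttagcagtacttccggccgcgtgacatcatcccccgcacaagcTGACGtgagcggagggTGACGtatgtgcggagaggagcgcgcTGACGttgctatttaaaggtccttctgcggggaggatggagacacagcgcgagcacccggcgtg
Bdnf chr2:109692186-109692485, plus strand: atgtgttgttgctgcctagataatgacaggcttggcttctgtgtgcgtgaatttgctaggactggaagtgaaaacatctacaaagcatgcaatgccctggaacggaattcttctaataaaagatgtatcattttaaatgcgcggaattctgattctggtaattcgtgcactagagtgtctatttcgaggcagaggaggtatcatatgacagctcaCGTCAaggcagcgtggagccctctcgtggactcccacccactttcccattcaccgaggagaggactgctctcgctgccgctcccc

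In *Pcsk1* and *Scg2* the full element began 78 and 68 bases before the start. *Npas4* had a core on each strand, beginning 179 and 169 bases before its start, and no full element in this window. *Homer1* had 3 cores on its own strand within 56 bases of the first of its 2 starts, and *Bdnf* had a core in 1 of its 7 windows. These starts are those of RefSeq and differ from the ends of the gene positions given here. The matched windows of *Npas4*, *Homer1*, and *Bdnf* lie wholly inside those positions, as does the full element of *Scg2*. A match describes the letters and not binding, and the members with the full element, *Pcsk1* and *Scg2*, had log2 fold changes of −0.17 and 0.03, neither past the threshold (adjusted p of 0.982 and 0.994 from edgeR's test).

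*Arc* and *Homer1* act on the postsynaptic side. *Arc* (ENSMUSG00000022602.14, chromosome 15 from 74669083 to 74672570, minus strand) encodes a protein that promotes the removal of AMPA receptors from the synapse. It had 19.6, 16.8, and 15.9 CPM in control mice 1 to 3 and 22.3, 17.9, and 17.7 CPM in NSKO mice 1 to 3. The genotypes overlapped, and the highest value was that of NSKO mouse 1, the mouse with the least *Npas4*. On the log2 scale the difference was 0.14 (standard error 0.113, 95% interval −0.10 to 0.38, adjusted p = 0.994 by edgeR's test), which as a fold runs from 0.932 to 1.30.

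*Homer1* (ENSMUSG00000007617.18, chromosome 13 from 93299635 to 93405129, plus strand) encodes scaffold proteins that tie receptors at the postsynaptic membrane to their partners. Its short, activity-induced form competes with the long forms, and the deposited counts join all 12 annotated transcripts of the gene, so that the forms were not separated. It had 40.9, 41.7, and 56.0 CPM in control mice 1 to 3 and 55.8, 43.8, and 48.6 CPM in NSKO mice 1 to 3. Control mouse 3 and NSKO mouse 1 shared the top of the range, and the genotypes overlapped throughout. For *Homer1* the log2 fold change was 0.10 (standard error 0.114, 95% interval −0.15 to 0.35, adjusted p = 0.994 by edgeR's test). Without control mouse 3 it was 0.26, with an unadjusted p below 0.05 and an adjusted p of 0.998 by the same test.

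The pentraxins *Nptx1* and *Nptx2* encode secreted proteins that assemble with each other and gather AMPA receptors at excitatory synapses. *Nptx1* (ENSMUSG00000025582.4, chromosome 11 from 119538719 to 119547753, minus strand) had 735, 690, and 696 CPM in control mice 1 to 3 and 746, 740, and 702 CPM in NSKO mice 1 to 3. The 6 values lay close together and the genotypes overlapped. Its log2 fold change was 0.04 (with a standard error of 0.051 and adjusted p = 0.994 by edgeR's test), and its 95% interval as a fold was 0.956 to 1.11.

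*Nptx2* (ENSMUSG00000059991.7, chromosome 5 from 144545902 to 144557478, plus strand) is the pentraxin first found as an activity-induced transcript. Its counts were few, 24, 16, and 14 for control mice 1 to 3 and 33, 30, and 29 for NSKO mice 1 to 3, which were 1.16, 1.11, and 0.900 CPM and 1.65, 1.54, and 1.54 CPM. Every NSKO mouse was above every control mouse (p = 0.1, again the smallest possible, in the exact permutation test). The mean was 1.06 ± 0.138 CPM in control and 1.58 ± 0.0645 CPM in NSKO mice (SD, n = 3 each). On the log2 scale the difference was 0.57 (95% interval −0.04 to 1.18, standard error 0.284; unadjusted p = 0.0654 and adjusted p = 0.937 by edgeR's test). As a fold, the interval ran from 0.971 to 2.27. With at least 10 counts required in every mouse, *Nptx2* also had an unadjusted p below 0.05 and was not past the threshold. Its direction was opposite to that of *Npas4*.

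*Bdnf* and *Inhba* encode secreted growth factors. *Bdnf* (ENSMUSG00000048482.14, chromosome 2 from 109674700 to 109727007, plus strand), the neurotrophin that acts through TrkB, had 20.3, 21.7, and 22.6 CPM in control mice 1 to 3 and 21.3, 16.9, and 17.3 CPM in NSKO mice 1 to 3. NSKO mice 2 and 3 were below all controls and NSKO mouse 1 was within their range. *Bdnf* thus differed by −0.22 on the log2 scale (standard error 0.10, 95% interval −0.43 to 0.00098, unadjusted p = 0.0509, adjusted p = 0.916 by edgeR's test). With no filter, without control mouse 1, and without NSKO mouse 1 its unadjusted p was below 0.05. In none of these fits was it past the threshold. All of its 11 annotated transcripts were counted as 1 gene. It shares 896 exon bases with *Gm45346* on the other strand, and its counts were not whole in 4 of the 6 mice; *Gm45346* held between 1.06 and 5.29 counts in a mouse, against 312 or more for *Bdnf*.

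*Inhba* (ENSMUSG00000041324.14, chromosome 13 from 16011851 to 16031621, plus strand) encodes the subunit of activin A. It had 2.85, 3.41, and 3.92 CPM in control mice 1 to 3 and 3.30, 3.34, and 2.66 CPM in NSKO mice 1 to 3, and the genotypes overlapped. Here the difference on the log2 scale was −0.12 (standard error 0.203, adjusted p = 0.994 by edgeR's test). With 49 to 66 counts in a mouse, its 95% interval ran from 0.680 to 1.25 as a fold.

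*Pcsk1*, *Vgf*, and *Scg2* belong to regulated secretion. *Pcsk1* (ENSMUSG00000021587.5, chromosome 13 from 75089826 to 75134861, plus strand) encodes the convertase PC1/3, which cuts prohormones. It had 18.7, 19.3, and 21.8 CPM in control mice 1 to 3 and 19.3, 16.1, and 17.8 CPM in NSKO mice 1 to 3. NSKO mouse 1 was within the control range and the others were below it, the same mice as for *Bdnf*. For *Pcsk1* the log2 fold change was −0.17 (standard error 0.098, 95% interval −0.38 to 0.05, adjusted p = 0.982 by edgeR's test).

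*Vgf* (ENSMUSG00000037428.14, chromosome 5 from 137026392 to 137033351, plus strand) encodes a precursor of secreted peptides. Its levels were 26.9, 31.7, and 33.0 CPM in control mice 1 to 3 and 30.9, 30.1, and 31.1 CPM in NSKO mice 1 to 3. All 3 NSKO values lay inside the control range. The difference was 0.01 on the log2 scale (standard error 0.082, 95% interval −0.17 to 0.19, adjusted p = 0.998 by edgeR's test).

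*Scg2* (ENSMUSG00000050711.7, chromosome 1 from 79434669 to 79440120, minus strand) encodes secretogranin II, a granin of dense-core vesicles and the precursor of secretoneurin. It had 135, 137, and 135 CPM in control mice 1 to 3 and 145, 141, and 130 CPM in NSKO mice 1 to 3, so that the NSKO mice lay on both sides of the controls. *Scg2* differed by 0.03 on the log2 scale (standard error 0.056, adjusted p = 0.994 by edgeR's test). Its 95% interval as a fold was 0.941 to 1.11.

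**Figure D2:**
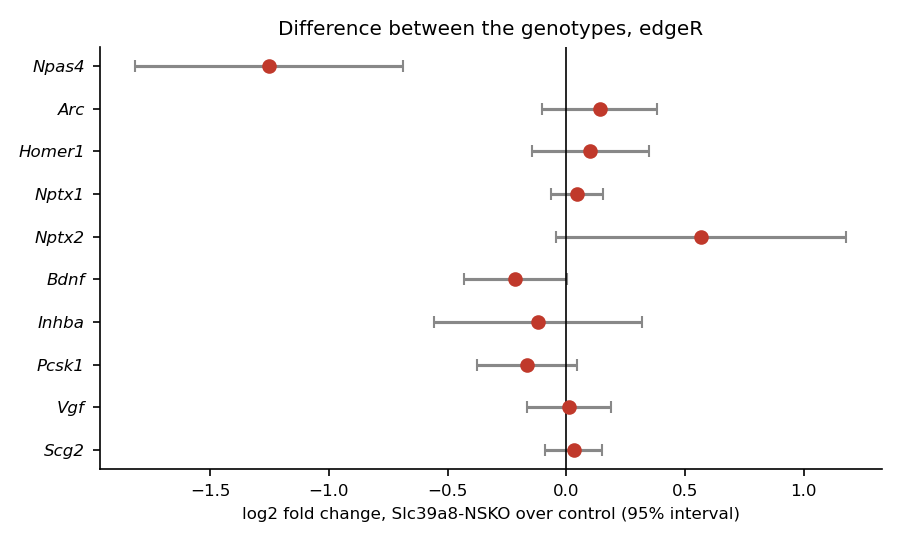
Log2 fold change of each gene, NSKO over control, from edgeR's fit of all genes; bars are 95% intervals of that gene alone, not adjusted for the number of genes tested. The interval of *Npas4*, −1.82 to −0.69, is the only one that does not include 0, and that of *Bdnf* ends at 0.00098.

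The intervals of the other 9 genes all included 0, and each is for its gene alone. For *Nptx1*, *Vgf*, and *Scg2* they stayed within 0.891 and 1.14 as a fold. The upper ends for *Arc*, *Homer1*, *Inhba*, and *Nptx2* were 1.30, 1.27, 1.25, and 2.27, and the lower ends for *Bdnf*, *Pcsk1*, and *Inhba* were 0.742, 0.770, and 0.680. The interval of *Npas4*, 0.284 to 0.621, lay below the lower end of each of these.

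Because library scaling nearly cancels in a ratio within a mouse, *Npas4* was also set against its fellow members mouse by mouse. The log2 ratio of *Npas4* to the mean of the other 9 was −0.91, −1.11, and −1.64 in control mice 1 to 3 and −3.19, −2.74, and −1.76 in NSKO mice 1 to 3. Every NSKO mouse was below every control mouse, by a difference of means of −1.34 (p = 0.1 in the exact permutation test). Of the 9 single ratios, those to *Arc*, *Nptx1*, *Nptx2*, *Vgf*, and *Scg2* did not overlap between the genotypes (exact permutation test, p = 0.1 each, and 0.18 adjusted over the 9 ratios). Those to *Bdnf*, *Homer1*, *Inhba*, and *Pcsk1* overlapped (exact permutation test, p = 0.2 each, and 0.2 adjusted). All 9 ratios share the same *Npas4* values, so they are not 9 separate results. Since 3 mice against 3 cannot give a p below 0.1, these ratios describe the mice and passed no threshold.

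Levels of different genes were compared as CPM per kilobase of annotated exon. In control mice *Nptx1* was highest, at 136 ± 4.62 (SD, n = 3), above 98.6% of the genes tested, followed by *Scg2* at 53.9 ± 0.553 and *Vgf* at 10.3 ± 1.08. *Arc* came next at 5.71 ± 0.624. *Homer1*, *Pcsk1*, and *Bdnf* followed at 3.85 ± 0.710, 3.56 ± 0.301, and 3.46 ± 0.181, and the mice overlapped between neighbours in this group. *Npas4* was at 2.63 ± 0.569 and below all of them. *Inhba* and *Nptx2* were lowest, at 0.531 ± 0.0839 and 0.417 ± 0.0544, and overlapped each other. The pentraxins therefore stood at the opposite ends of the order.

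In NSKO mice *Npas4* was at 1.11 ± 0.554 CPM per kilobase (SD, n = 3) and kept its place between *Bdnf*, at 2.97 ± 0.389, and the lowest pair. That pair stood in the other order, with *Nptx2* at 0.622 ± 0.0254 above *Inhba* at 0.485 ± 0.0601 and no overlap between them in these mice. *Homer1* has 11976 exon bases in all but 5713 in its longest transcript, and with the longest transcript as the length its control level was 8.08, above *Arc*. *Bdnf* at 5.05 was then above *Pcsk1* at 3.95, and the other members kept their places.

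**Figure D3:**
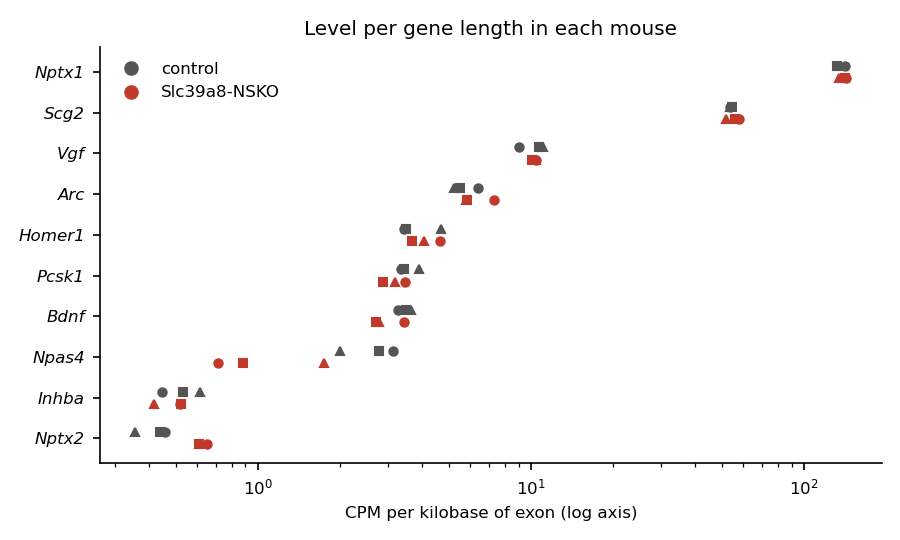
CPM per kilobase of annotated exon (log axis) of each gene in each mouse, with control mice in grey and NSKO mice in red and marker shapes for mice 1 to 3. The genes span from 0.417 for *Nptx2* to 136 for *Nptx1* as control means, and only for *Npas4* and *Nptx2* do the colours separate.

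The pattern of *Npas4* over the 6 mice was compared with that of every gene tested, as the root mean square difference of log2 CPM after each gene's own mean was subtracted. *Npas4* itself deviated from its mean by 0.78 on this scale. The 5 nearest genes were *Gm38032* at 0.26, *Nr4a1* at 0.26, *5330409N07Rik* at 0.29, *Ccno* at 0.30, and *Apold1* at 0.32. *Nr4a1*, a nuclear receptor of the first wave, and *Apold1*, a gene of endothelial cells, had log2 fold changes of −1.49 and −1.66 and adjusted p values of 9.5e-05 and 0.00101 from edgeR's test. The other 3 did not pass (adjusted p of 0.607 for *Gm38032*, 0.979 for *5330409N07Rik*, and 0.954 for *Ccno* from edgeR's test). All 6 profiles were higher in NSKO mouse 3 than in NSKO mice 1 and 2. The 5 genes were picked for their likeness to *Npas4* over these same mice. This shared feature therefore follows from the choice and is not a separate result.

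The fellow member nearest to *Npas4* was *Bdnf*, at 0.74, which was number 3003 among the genes tested. Among the other members, *Bdnf* and *Pcsk1* were nearest to each other (0.07, against 0.16 and 0.13 for their own deviations from their means). *Nptx1* and *Scg2* were also nearest to each other (0.04), but their own deviations were no more than 0.05, so that both were nearly flat over the mice. *Vgf* was nearest to *Scg2* (0.10) and deviated from its own mean by less than that (0.09). *Homer1* and *Inhba* were nearest to *Vgf* (0.15 and 0.14, against own deviations of 0.19 and 0.18), *Arc* to *Nptx1* (0.12 against 0.16), and *Nptx2* to *Arc* (0.22 against 0.29).

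**Figure D4:**
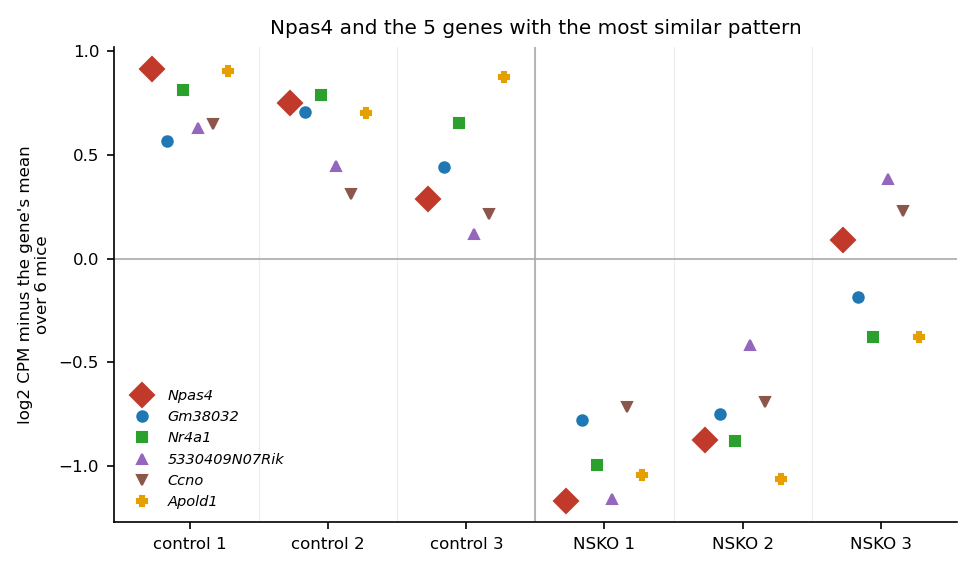
Log2 CPM of *Npas4* and of the 5 genes nearest to it in pattern, in each mouse, minus each gene's mean over the 6 mice. *Npas4* stands at 0.92, 0.75, and 0.29 in control mice 1 to 3 and at −1.17, −0.87, and 0.09 in NSKO mice 1 to 3. Each gene is highest among the NSKO mice in mouse 3, which the choice by likeness over these mice favours.

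Other genes of the same pathways were taken from lists of known genes. Of 17 rapid activity-induced transcription factors, 15 were tested, and 6 fell, with none higher: *Fos*, *Fosb*, *Fosl2*, *Nr4a1*, *Nr4a2*, and *Nr4a3*. *Fos*, the partner of JUN in AP-1, had 81.1, 84.2, and 63.7 CPM in control mice 1 to 3 and 14.9, 16.3, and 30.0 CPM in NSKO mice 1 to 3 (log2 fold change −1.91, standard error 0.192, adjusted p = 0.000578 by edgeR's test). As for *Npas4*, control mouse 3 was the lowest control and NSKO mouse 3 the highest of its group. Of the other genes that fell, only *Nr4a1* shared this order of the mice. Control mouse 3 was the highest control for *Fosb*, *Fosl2*, and *Nr4a3*. For *Fosl2*, *Nr4a2*, and *Nr4a3*, NSKO mouse 1 was the highest of its group. The median log2 fold change of the list was −0.71, and all 15 values were below 0. The study had picked several of these genes from these libraries, so the list is not independent evidence of a direction.

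Of 29 other activity-induced effector genes, 26 were tested and none passed in edgeR's test, in either direction. At an unadjusted p below 0.05, 6 were lower and 1 was higher, where 513 of all 16330 genes tested were lower and 368 higher. The genotypes did not overlap in 6 that were lower and 1 that was higher, against 5.26% and 5.07% of all genes. None passed with DESeq2 or limma-voom, and the median log2 fold change was −0.05. The lowest p values were those of *Gadd45g*, a stress- and activity-induced regulator of DNA demethylation and growth arrest, of *Btg2*, an antiproliferative gene, and of *Sertad1*, a transcriptional coregulator. *Gadd45g* had 40.3, 43.2, and 48.1 CPM in control mice and 30.1, 35.8, and 33.9 CPM in NSKO mice (log2 fold change −0.40, adjusted p = 0.156 by edgeR's test), with no overlap. *Btg2* and *Sertad1* had log2 fold changes of −0.38 and 0.47 (adjusted p of 0.473 and 0.511 from edgeR's test).

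Of 30 receptors, partners, and family members of the 10 proteins, 29 were tested and none passed in edgeR's test, in DESeq2, or in limma-voom, with 1 at an unadjusted p below 0.05 and a median log2 fold change of 0.04. *Acvr2a*, a receptor of activins, and *Sorcs3*, a sortilin-type receptor, had log2 fold changes of −0.13 and 0.17 (adjusted p of 0.968 each from edgeR's test). The partners of the *Npas4* protein, *Arnt* and *Arnt2*, had values of −0.07 and 0.09 (adjusted p of 0.994 each), the pentraxin receptor *Nptxr* 0.05 (0.994), and the *Bdnf* receptor *Ntrk2* 0.05 (0.994).

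Of 14 genes of dense-core vesicles and prohormone processing, all were tested and none passed in edgeR's test, in DESeq2, or in limma-voom, with a median log2 fold change of 0.04. At an unadjusted p below 0.05 were *Chgb*, the granin chromogranin B, which was lower (log2 fold change −0.18, adjusted p = 0.774 by edgeR's test), and *Ptprn2*, a membrane protein of these vesicles, which was higher (0.25, adjusted p = 0.867). *Cpe*, the carboxypeptidase that trims the products of *Pcsk1*, followed at 0.09 (adjusted p = 0.969).

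**Figure D5:**
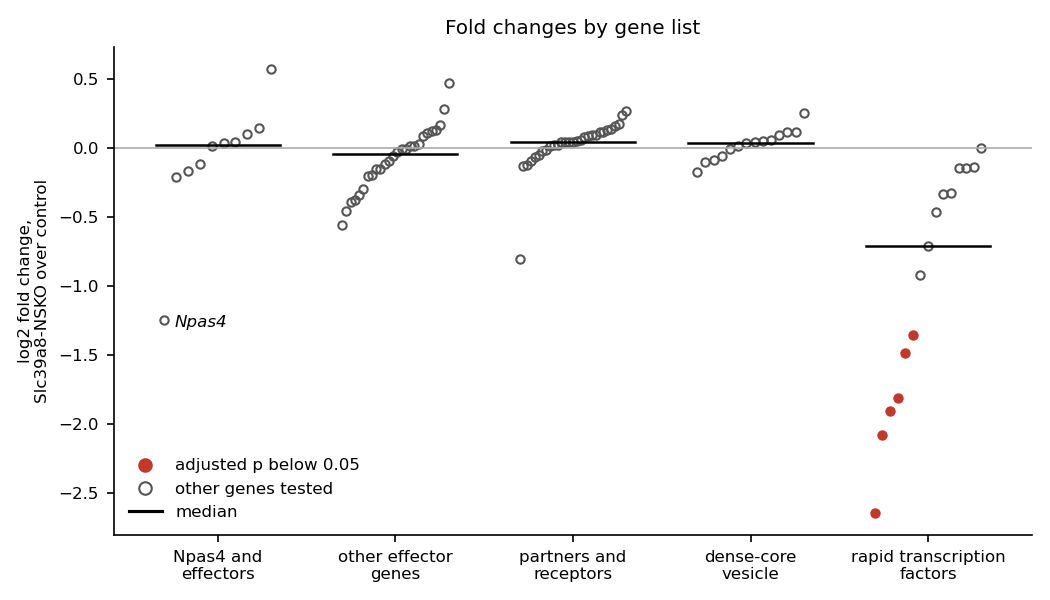
Log2 fold change (NSKO over control) of every tested gene of 5 lists, with lines at the medians and filled points for an adjusted p below 0.05. The 6 filled points are all in the list of rapid transcription factors, whose median is −0.71, while the medians of the other lists lie between −0.05 and 0.04 and *Npas4* stands apart from the other members at −1.25.

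Markers of other cells were read beside these values. None of 10 markers each of Purkinje cells and granule cells passed, with medians of 0.01 and 0.02 and summed levels that overlapped between the genotypes, and 1 gene of each list (*Itpr1* and *Zic2*) was higher at an unadjusted p below 0.05. Of all 16330 genes tested, 368 were higher and 513 lower at that unadjusted level, for comparison with the lists that follow. Of 10 inhibitory interneuron markers only *Nxph1* passed, as lower (log2 fold change −0.92), and their sums overlapped at 2070 to 2120 and 2002 to 2162 CPM. The 10 forebrain markers, a region where *Npas4* and *Arc* are abundant, summed to between 270 and 285 CPM in control and between 271 and 309 CPM in NSKO mice, of which *Ppp1r1b* held between 255 and 298 CPM, and of the 6 tested none passed. Among them *Neurod6*, a transcription factor gene of cortical neurons, was lower in every NSKO mouse (6.26 to 7.90 CPM in control against 4.71 to 5.63 CPM, adjusted p = 0.678 by edgeR's test). The 12 brainstem and midbrain markers summed to between 6.22 and 8.16 CPM in all mice, with 2 tested and none passing. The 10 astroglial markers summed to between 3479 and 3882 CPM in control and to between 3962 and 4053 CPM in NSKO mice. Every NSKO sum was thus above every control sum, and 1 marker had a log2 fold change below 0. Of these markers 4 were higher at an unadjusted p below 0.05 and none was past the threshold. The genotypes did not overlap in 4 that were higher and 1 that was lower, against 5.07% and 5.26% of all genes. The 7 choroid plexus markers overlapped, at 781 to 1123 and 910 to 1568 CPM, with 4 higher at an unadjusted p below 0.05 and none past the threshold, and the 7 markers of cerebellar nuclear neurons and unipolar brush cells overlapped at 216 to 237 and 202 to 224 CPM, with none past it and 1 lower at an unadjusted p below 0.05. That gene was *Eomes* of unipolar brush cells (33.8, 53.0, and 74.2 CPM in control and 41.9, 24.1, and 37.4 CPM in NSKO mice, log2 fold change −0.63, adjusted p = 0.857 by edgeR's test), and its genotypes overlapped. Of 8 heart muscle markers, *Myh6*, *Actc1*, and *Tnnt2* were higher and passed, at 4.83 CPM or less, while the sum of the list, mostly *Ryr2*, overlapped at 209 to 239 and 212 to 240 CPM. The part of any of these cells in the levels of *Npas4* or the other members was not tested.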

How the data were processed

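RNA was isolated from the cerebellum of 3 mice per genotype, reverse-transcribed with oligo-dT, and sequenced as paired-end reads. Per the labels and methods, the authors aligned the reads to the mouse genome (mm10) with STAR and tested the genes with DESeq2. The deposited values are expected counts per gene, as RSEM writes them, with no scaling for library size or length; the submitters' processing notes name RSEM, and versions and the strand setting are not given in the sources used here. Of 53715 genes, 53620 were named with GENCODE M21 (GRCm38). The 92 spike-in sequences were left out. Here the expected counts were rounded and tested in R 4.3.3 with edgeR 4.0.16 (filterByExpr, TMM, glmQLFit, glmQLFTest, no covariate), with Benjamini-Hochberg adjustment over 16330 genes. CPM refers to TMM-scaled library sizes, and log2 CPM has a prior count of 2. Intervals use the t distribution of the fit. Alternatives were DESeq2 1.42.0, limma-voom (limma 3.58.1), RLE scaling, library size alone, no filter, at least 10 counts in every mouse, unrounded counts, a block for replicate number, and leaving out each mouse. The methods state 3 biological replicates per genotype, while a legend speaks of technical triplicates; p-values measure the spread between these samples. Libraries were made with a directional kit per the labels. A count was called whole within 0.005. Named are all members, *Slc39a8*, list genes past the threshold or otherwise with the 3 lowest p values, the 5 genes nearest to *Npas4*, and nearest fellow members; marker genes, *Arnt*, *Arnt2*, *Nptxr*, *Ntrk2*, *Gm45346*, and *Eomes* were added after their values were seen. Some list genes are not reported here. The members and lists were chosen with earlier results of these data known.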

Additional observations from a re-analysis of the deposited data

How the results depend on the processing

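Over 14 other fits, *Npas4* stayed lower, with log2 fold changes between −1.73 and −1.01, and was past the threshold in 3: with DESeq2, without NSKO mouse 3, and with no filter on low counts. With no filter the log2 fold change was −1.25, but edgeR's prior degrees of freedom became infinite (against 9.45 with the filter). Each gene was thus given the trend's variance alone. For *Npas4* this was 0.824, against 2.35 with the filter, which is its own variance already drawn towards the trend. No other member passed in any of the 14. Members past the threshold as lower numbered 1 with DESeq2, 1 with no filter, and 0 to 1 when each mouse was left out. *Vgf* changed sign without control mouse 1 (−0.076; 0.074 at the highest, without control mouse 3) and *Scg2* without NSKO mouse 1 (−0.0016; 0.077 at the highest, without NSKO mouse 3), neither past the threshold.

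Of all genes, 12 were lower and 4 higher in edgeR's test; these counts were 29 and 8 with DESeq2, 112 and 66 with no filter, and 32 and 9 with the replicate number as a block. With limma-voom 2 were higher, and with at least 10 counts in every mouse 0 were higher in edgeR's test (345 at an unadjusted p below 0.05). With each mouse left out they ranged from 7 (without NSKO mouse 2) to 27 (without control mouse 1) lower and from 2 to 11 higher. With no filter 3 other effector genes (*Gadd45g*, *Btg2*, and *Ier2*) were lower and 1 vesicle gene (*Ptprn2*) was higher; with the block 1 effector gene (*Gadd45g*) was lower. The median of the rapid transcription factors was −0.46 with DESeq2 and −0.46 with no filter, where 17 genes entered in each, and −0.81 to −0.54 with each mouse left out. Their calls as lower numbered 9 with no filter, 5 of 14 under the minimum of 10 counts, and 6 in each of the other fits. Leaving out each mouse moved the median of the members between −0.030 (without control mouse 1) and 0.037, that of the other effectors between −0.11 (without control mouse 1) and −0.0087, and the log2 ratio of *Npas4* to the other members between −1.74 (without NSKO mouse 3) and −1.03.

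Whether the replicate numbers pair the mice cannot be told from these values. The deviations of same-numbered mice correlated at 0.14, 0.12, and 0.01 over genes, and those of differently numbered mice at −0.18 to 0.07. With the block, *Npas4* stood at −1.29 on the log2 scale, with adjusted p = 0.177 by edgeR's test. *Nptx2* and *Inhba* had at most 66 counts in a mouse and *Npas4* as few as 59, which limits the precision of their values.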
